A study of Mus musculus with 6 samples.

Results

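The 10 genes described here are protein-coding neighbours of Cd55 on mouse chromosome 1: Rnpep, Zc3h11a, Srgap2, Csrp1, Mapkapk2, Ikbke, Rassf5, Mdm4, Btg2 and Ptprc. They were picked by symbol from the protein-coding genes within 10 Mb of Cd55, some because their counts differed between the genotypes and some because they are immune or signalling genes expressed in B cells. The 10 symbols correspond to 11 of the 55487 gene IDs in the count table, because 2 IDs carry the name Zc3h11a, and all 11 IDs passed the filter on low counts. RNA was sequenced from marginal zone (MZ) B cells of 14-week-old mice, in 3 libraries from CD55KO mice and 3 libraries from WT C57BL/6 mice. The cells had been enriched as B cells by negative selection and then flow sorted. How the CD55KO allele was made, and on which strain, is not stated in the sources used here. Whether separate mice stand behind the libraries is not in the labels either, so every p-value rests on library-to-library spread alone, and this may be technical.

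Cd55 encodes decay-accelerating factor, a membrane protein that protects the cells bearing it from complement. Genes that lie close together on a chromosome are inherited together, and their products need not share a function. The neighbours described here range from an aminopeptidase and an mRNA export factor to regulators of the actin cytoskeleton, stress and innate immune kinases, brakes on p53 and on proliferation, and CD45, the phosphatase that sets the activity of Src-family kinases in lymphocytes.

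Total counts were 24961311 to 29209592 in the CD55KO libraries and 20056064 to 30784031 in the WT libraries. Cd55 itself had 8.94, 6.23 and 7.42 CPM (counts per 1000000 of the TMM-scaled library total) in CD55KO replicates 1 to 3, against 125, 119 and 110 CPM in WT replicates 1 to 3. That is 6.41% of the WT level, and every library matched its label. The summed level of 8 B cell markers was 14807 to 16005 CPM in CD55KO, against 14428 to 16605 CPM in WT, and that of 7 MZ B cell markers was 3089 to 3319 CPM in CD55KO, against 2982 to 3198 CPM in WT. Summed markers of T cells were 41.5 to 48.9 CPM over 8 genes in CD55KO, against 39.2 to 44.3 CPM in WT. Those of NK cells were 29.8 to 33.5 CPM over 5 genes in CD55KO, against 26.9 to 35.3 CPM in WT, with Ncr1 at 0 in every library. Those of macrophages and monocytes were 24.2 to 27.2 CPM over 8 genes in CD55KO, against 17.1 to 24.9 CPM in WT. Neutrophil markers were at most 0.0367 CPM in CD55KO, against 0.391 CPM in WT, with Elane and Ly6g at 0 in every library. Erythroid transcripts differed widely between libraries, at 35.8 to 1989 CPM in CD55KO, against 105.2 to 4350.5 CPM in WT. Plasma cell markers were the 1 list of other cells in which the genotypes did not overlap, with a summed level of 161.5 to 174.2 CPM over 6 genes in CD55KO, against 187.9 to 245.5 CPM in WT, and 1 of the 5 tested genes past the threshold. Their part in the results below was not tested. In bulk samples, fewer cells of a type and less RNA per cell cannot be told apart. WT replicate 1 was the shallowest library and was separated from the others along the first principal component (28.8% of the variance).

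Of the 11 gene IDs, 2 were higher and 2 lower in CD55KO at an adjusted p under 0.05 in edgeR's quasi-likelihood test over all genes, and 7 did not pass. The lowest member in CD55KO was Rnpep, at 32.5% of its WT level, followed by 1 of the Zc3h11a IDs at 61.3%. Csrp1 stood at 161% and Srgap2 at 152% of their WT levels. Of all 13794 genes tested, 55 passed (0.399%), with 0.138% higher and 0.261% lower. Because the genes were chosen partly on this contrast, the count of members is a description from which nothing is read, and the fold changes and adjusted p-values given for single members are the values that chose them, not independent tests. CD55KO and WT libraries did not overlap for 7 of the 11 IDs, where 14.1% of all tested genes showed such a separation. The member just past the threshold was Zc3h11a (adjusted p = 0.0278) and the nearest one on the other side was Ikbke (adjusted p = 0.537), both in edgeR's quasi-likelihood test. The median log2 fold change of the 11 IDs was -0.0040, beside 0.0015 over all tested genes.

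**Figure D1:**
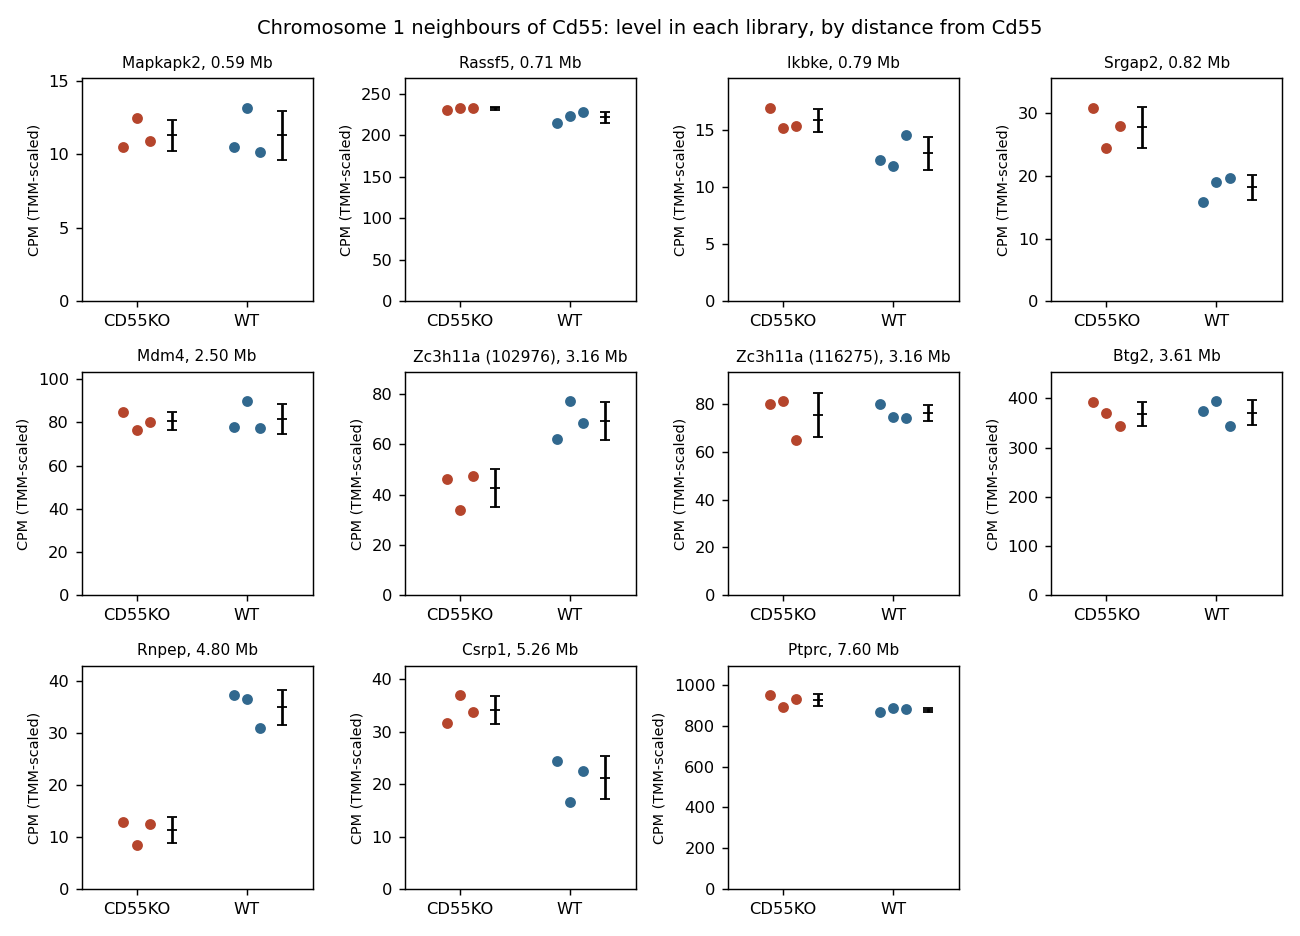
Level of each gene ID in CPM (TMM-scaled, linear axis from 0) in the 3 CD55KO libraries (red) and the 3 WT libraries (blue), with the mean and SD in black, ordered by distance from Cd55. Rnpep and Zc3h11a (ENSMUSG00000102976) lay lower and Srgap2 and Csrp1 higher in all CD55KO libraries, while Mapkapk2, Mdm4, Btg2 and the second Zc3h11a ID overlapped.

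All 10 genes lie on the side of Cd55 with higher coordinates (GRCm38, by GENCODE M21), between 0.591 and 7.60 Mb from it. Cd55 runs from position 130439027 to 130462744 on the minus strand. Mapkapk2 comes first, followed by Rassf5 at 0.714 Mb, Ikbke at 0.792 Mb and Srgap2 at 0.823 Mb. Rassf5, Ikbke and Srgap2 are direct neighbours among the tested protein-coding genes, with gaps of 9.09 kb and 5.64 kb, and of these Srgap2 alone passed the threshold. Mdm4 follows at 2.50 Mb, Zc3h11a at 3.16 Mb, Btg2 at 3.61 Mb, Rnpep at 4.8 Mb, Csrp1 at 5.26 Mb and Ptprc at 7.60 Mb. Csrp1 is on the plus strand and the other 9 genes are on the minus strand. The genes that passed were thus interspersed with genes that did not. Insig2 at 9.11 Mb was the last tested protein-coding gene in the 10 Mb window (log2 fold change 0.14 ± 0.08 SE). That is over both sides of Cd55, and Insig2 lies on the side of lower coordinates, opposite the 10 genes. The first outside the window was Steap3 at 10.2 Mb (0.05 ± 0.28 SE). On the side of the 10 genes, the last inside the window was Aspm at 8.99 Mb (-0.57 ± 0.42 SE).

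Rnpep (ENSMUSG00000041926, positions 135262712 to 135284084) encodes aminopeptidase B, a zinc metallopeptidase that removes basic residues from the amino end of peptides. It had 12.9, 8.41 and 12.5 CPM in CD55KO replicates 1 to 3, against 37.2, 36.4 and 30.9 CPM in WT replicates 1 to 3. Every CD55KO library lay well under every WT library, and CD55KO replicate 2 was the lowest. The mean was 11.3 ± 2.49 CPM in CD55KO, against 34.8 ± 3.45 CPM in WT (n = 3 each, SD). The log2 fold change was -1.62 ± 0.14 (SE), with adjusted p = 3.98e-05 by edgeR's quasi-likelihood test. The CD55KO level came to 32.5% of WT, with a 95% interval of 26.3 to 40.3%. Rnpep passed with any 1 of the 6 libraries left out, with adjusted p from 7.96e-06 to 5.34e-04 in edgeR's test. Its counts were not whole in any library, and the antisense gene Gm26642, which overlaps 5.27% of its exon bases, had 1.02 to 4.17 counts in CD55KO and 8.19 to 14.3 counts in WT. The kit does not mark strand, so reads of the overlap cannot be told apart, but all counts of Gm26642 together came to less than the smallest Rnpep count of a library, 208. Its nearest tested protein-coding neighbours did not pass: Timm17a, 11.1 kb away, had a log2 fold change of -0.14 ± 0.08 (SE) and Arl8a, 106 kb away, one of -0.07 ± 0.19 (SE).

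The 250 bases before the start of Rnpep annotated in RefSeq (chr1:135284085-135284334, minus strand, GRCm38.p6) are shown because this gene had the largest fold change of the 10. Letters are lower case except where 1 of 6 short motifs matched on either strand. The GC box was searched as GGGCGG and the CCAAT box by the letters of its name. The motif of ETS factors was searched as CCGGAAG, and that of the TATA box as TATAAA. An E-box was searched as CACGTG, and the cAMP response element by the letters TGACGTCA.
Rnpep: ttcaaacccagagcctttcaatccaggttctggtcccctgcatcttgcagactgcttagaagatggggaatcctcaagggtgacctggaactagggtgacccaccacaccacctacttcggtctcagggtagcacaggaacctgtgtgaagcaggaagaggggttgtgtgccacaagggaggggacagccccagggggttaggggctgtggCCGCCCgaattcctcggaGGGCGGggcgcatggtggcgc
This window had 60.4% G and C and 2 GC boxes, a motif that 32.7% of the 32851 promoter windows of the same length held at least once. A match is a description of letters and says nothing of binding.

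Zc3h11a encodes a zinc finger protein that takes part in the export of mRNA from the nucleus with the TREX complex. The 2 gene IDs of this name lie on the minus strand, ENSMUSG00000102976 from position 133619862 to 133661380 and ENSMUSG00000116275 from 133619871 to 133661380. All exon bases of the second (100%) also belong to the first, where they make up 72.9% of its exon bases, so the split of reads between them rests on the authors' estimation, and their values are uncertain. The first ID had 46.3, 33.8 and 47.3 CPM in CD55KO replicates 1 to 3, against 62.2, 77.1 and 68.5 CPM in WT replicates 1 to 3. Here the genotypes did not overlap, and the log2 fold change was -0.71 ± 0.12 (SE, adjusted p = 0.0278 in edgeR's quasi-likelihood test). The second ID had 80.3, 81.3 and 65.1 CPM in CD55KO, against 80.1, 74.8 and 74.1 CPM in WT, with overlapping libraries and a log2 fold change of -0.01 ± 0.09 (SE). The first ID made up 36.0 ± 6.35% of the counts of both in CD55KO and 47.5 ± 3.55% in WT (n = 3 each, SD).

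With both IDs summed before the fit, a setting added after seeing the data, Zc3h11a had 127, 115 and 112 CPM in CD55KO replicates 1 to 3, against 142, 152 and 143 CPM in WT replicates 1 to 3. The genotypes still did not overlap, but the log2 fold change shrank to -0.30 ± 0.07 (SE) and did not pass over all genes (adjusted p = 0.117 in edgeR's test, unadjusted p = 7.97e-04). None of the 6 fits of this sum without 1 library passed (adjusted p 0.0503 to 0.416). Adding Gm38394, another ID that overlaps both and had 3.51 ± 0.47 CPM in CD55KO, against 3.5 ± 0.03 CPM in WT (n = 3 each, SD), gave -0.30 ± 0.07 (SE, adjusted p = 0.121). The call of Zc3h11a thus held for 1 of its 2 IDs and not for the locus as a whole. The first ID alone passed in 3 of the 6 fits without 1 library, and not without CD55KO replicate 1 (adjusted p = 0.0992), WT replicate 2 (0.0893) or WT replicate 3 (0.166).

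**Figure D2:**
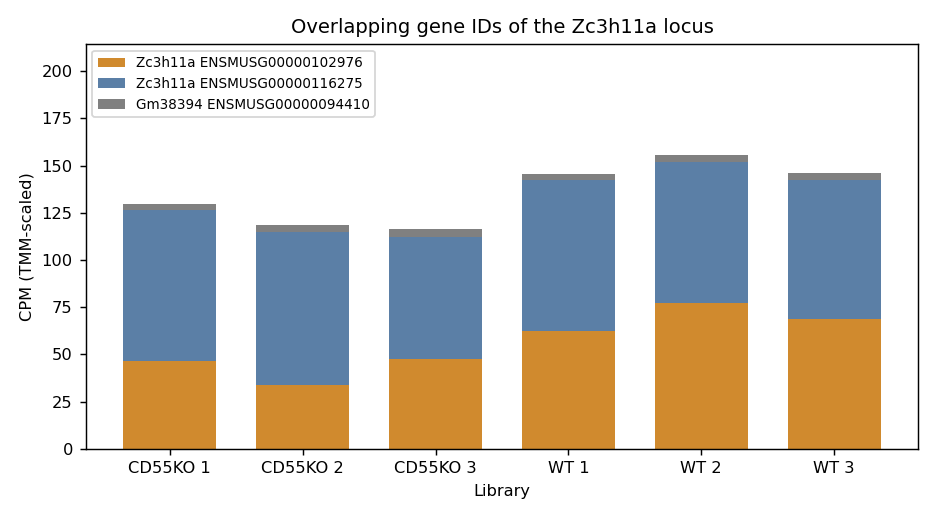
CPM (TMM-scaled, stacked, linear axis from 0) of the 3 overlapping gene IDs of the Zc3h11a locus in each CD55KO library (left) and WT library (right). The lowest segment, ENSMUSG00000102976, was 33.8 to 47.3 CPM in CD55KO, against 62.2 to 77.1 CPM in WT, while the middle segment, ENSMUSG00000116275, overlapped between the genotypes.

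The window before the start of Zc3h11a (chr1:133661400-133661649, minus strand, RefSeq GRCm38.p6) is shown because both Zc3h11a IDs start at the same position, with capitals as for Rnpep.
Zc3h11a: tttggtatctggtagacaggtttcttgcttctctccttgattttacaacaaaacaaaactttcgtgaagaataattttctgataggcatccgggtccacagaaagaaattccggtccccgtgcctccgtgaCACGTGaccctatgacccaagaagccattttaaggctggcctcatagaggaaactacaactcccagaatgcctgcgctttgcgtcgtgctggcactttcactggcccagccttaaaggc
It had 48% G and C and 1 E-box, which 6.02% of all windows held. The nearest tested protein-coding genes outside the locus, Snrpe at 9.57 kb (log2 fold change 0.19 ± 0.10 SE) and Lax1 at 17.7 kb (0.09 ± 0.09 SE), did not pass.

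Srgap2 (ENSMUSG00000026425, positions 131285251 to 131527352) encodes an F-BAR protein that bends membranes and switches off the GTPase Rac1 in the actin cytoskeleton. It had 30.9, 24.4 and 27.9 CPM in CD55KO replicates 1 to 3, against 15.9, 19.1 and 19.6 CPM in WT replicates 1 to 3. All CD55KO libraries were above all WT libraries, and the shallow WT replicate 1 was the lowest. The mean was 27.7 ± 3.24 CPM in CD55KO, against 18.2 ± 2.02 CPM in WT (n = 3 each, SD), a log2 fold change of 0.60 ± 0.11 (SE, adjusted p = 0.025 in edgeR's quasi-likelihood test). Srgap2 passed in 1 of the 6 fits without 1 library, that without CD55KO replicate 2 (adjusted p = 0.0205). In the other 5 it had adjusted p from 0.0644, without WT replicate 3, to 0.115, without WT replicate 1, and log2 fold changes from 0.52 to 0.66. None of the 5 other gene IDs of the table that lie within it shared an exon base with it.

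Csrp1 (ENSMUSG00000026421, positions 135720061 to 135752232) encodes a small protein of paired LIM domains that binds actin bundles. It had 31.7, 37.0 and 33.8 CPM in CD55KO replicates 1 to 3, against 24.5, 16.6 and 22.6 CPM in WT replicates 1 to 3. The genotypes did not overlap, and WT replicate 2 was the lowest library. The mean was 34.2 ± 2.65 CPM in CD55KO, against 21.3 ± 4.11 CPM in WT (n = 3 each, SD), a log2 fold change of 0.69 ± 0.13 (SE, adjusted p = 0.0231 in edgeR's quasi-likelihood test). Csrp1 passed in 1 of the 6 fits without 1 library, that without WT replicate 1 (adjusted p = 0.011). In the other 5 it had adjusted p from 0.0525, without CD55KO replicate 1, to 0.134, without CD55KO replicate 2, and the log2 fold change ranged from 0.54 to 0.80 over all 6. All counts of Csrp1 and Srgap2 were whole numbers, and no other gene ID in the table overlaps Csrp1.

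The windows before the starts of the 2 members that were higher in CD55KO are shown beside each other with the same capitals (RefSeq GRCm38.p6). Srgap2 lies on the minus strand (chr1:131527362-131527611). Csrp1, on the plus strand, has 2 annotated starts (chr1:135719813-135720062 and chr1:135728917-135729166), and gene-level counts do not say which was used.
Srgap2: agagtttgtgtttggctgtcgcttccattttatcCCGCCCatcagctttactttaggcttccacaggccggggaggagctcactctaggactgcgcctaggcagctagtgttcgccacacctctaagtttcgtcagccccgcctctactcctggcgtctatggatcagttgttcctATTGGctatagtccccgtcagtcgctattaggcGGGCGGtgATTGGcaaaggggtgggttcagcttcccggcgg
Csrp1 first start: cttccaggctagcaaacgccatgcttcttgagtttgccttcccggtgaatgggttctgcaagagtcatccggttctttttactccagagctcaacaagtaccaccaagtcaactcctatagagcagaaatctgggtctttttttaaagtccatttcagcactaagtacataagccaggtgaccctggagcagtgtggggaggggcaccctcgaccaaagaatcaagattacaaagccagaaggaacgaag
Csrp1 second start: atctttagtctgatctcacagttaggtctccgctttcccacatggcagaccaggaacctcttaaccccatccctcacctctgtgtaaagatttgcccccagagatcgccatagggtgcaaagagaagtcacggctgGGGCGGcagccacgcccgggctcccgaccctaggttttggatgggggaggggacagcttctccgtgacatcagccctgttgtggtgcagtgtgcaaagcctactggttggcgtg
The Srgap2 window held 2 GC boxes and 2 CCAAT boxes, and CCAAT is found in 33.8% of all windows. The first Csrp1 window held none of the 6 motifs and the second held 1 GC box. A GC box was found in 5 of the 13 windows of the 10 genes, a CCAAT box in 2 of them and the kappa B-like motif in 4 of them.

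**Figure D3:**
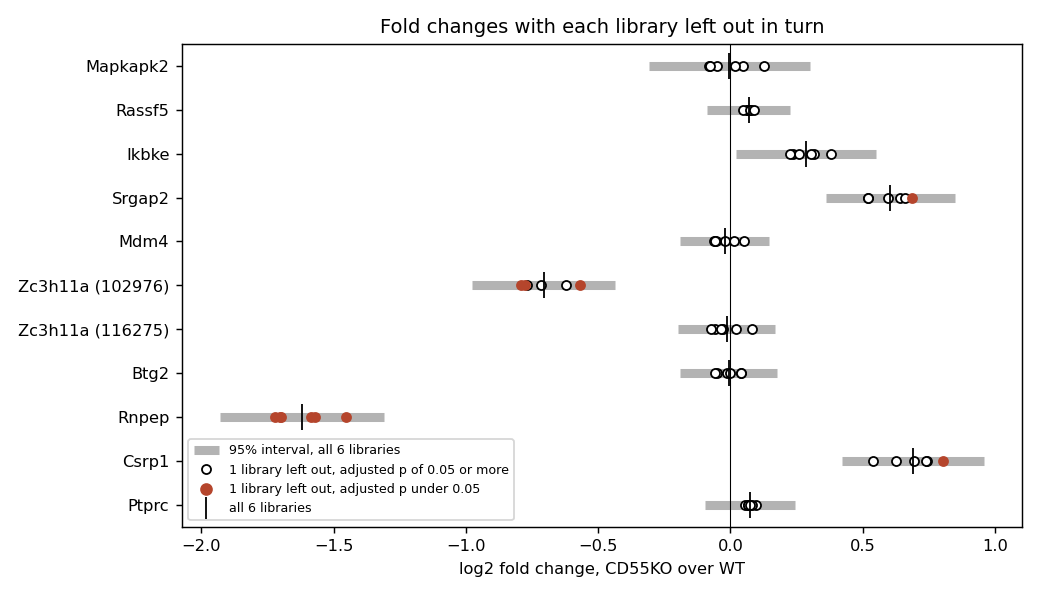
Log2 fold change (CD55KO over WT) of each gene ID with all 6 libraries (black tick, with its 95% interval in grey) and with each library left out in turn (circles, filled where the adjusted p was under 0.05). Rnpep was filled in all 6 fits, and Srgap2 and Csrp1 in 1 each.

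Mapkapk2 and Ikbke encode protein kinases of stress and innate immune signalling. Mapkapk2 (ENSMUSG00000016528, positions 131053700 to 131097826) encodes MK2, a kinase that p38 activates and that stabilises inflammatory mRNAs. Ikbke (ENSMUSG00000042349, positions 131254343 to 131279606) encodes a relative of the IKK kinases that works beside TBK1. Mapkapk2 had 10.5, 12.5 and 10.9 CPM in CD55KO replicates 1 to 3, against 10.5, 13.2 and 10.2 CPM in WT replicates 1 to 3. The libraries overlapped, the log2 fold change was -0.0040 ± 0.14 (SE), and the 95% interval of the CD55KO level was 80.7 to 123% of WT. Ikbke had 17.0, 15.2 and 15.4 CPM in CD55KO, against 12.4, 11.9 and 14.6 CPM in WT. Its libraries did not overlap, but its log2 fold change of 0.29 ± 0.12 (SE) did not pass (adjusted p = 0.537 in edgeR's quasi-likelihood test), and the 95% interval of the CD55KO level was 102 to 147% of WT. Ikbke lies between Rassf5 and Srgap2, and a test of whether its change differed from that of Srgap2 was not run.

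Rassf5 (ENSMUSG00000026430, positions 131176410 to 131245258) encodes RAPL, an effector of Rap1 that couples chemokine and antigen receptor signals to integrins and to the kinase MST1. It had 231, 234 and 233 CPM in CD55KO replicates 1 to 3, against 214.5, 223 and 228 CPM in WT replicates 1 to 3. The CD55KO libraries were all slightly above the WT libraries, with coefficients of variation of 0.653% in CD55KO, against 3.03% in WT. The log2 fold change of 0.07 ± 0.07 (SE) did not pass (adjusted p = 0.865 in edgeR's test), and its 95% interval spans 94.1 to 117% of the WT level. Rassf5 shares 1.95% of its exon bases with Eif2d on the opposite strand, so a small part of its reads cannot be told apart from that gene. Gene-level counts do not separate the 5 annotated transcripts of Rassf5, so the level of any single form is not known.

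Mdm4 (ENSMUSG00000054387, positions 132959484 to 133030561) encodes an inhibitor of p53 that binds it as a partner of MDM2. Btg2 (ENSMUSG00000020423, positions 134075170 to 134079120) encodes an antiproliferative protein that recruits the CCR4-NOT deadenylase to mRNAs and is itself a p53 target. Mdm4 had 85.0, 76.6 and 80.2 CPM in CD55KO replicates 1 to 3, against 77.9, 89.8 and 77.6 CPM in WT replicates 1 to 3. Btg2 had 392, 371 and 343 CPM in CD55KO, against 374, 394 and 344 CPM in WT. Both genes overlapped between the genotypes, with log2 fold changes of -0.02 ± 0.08 (SE) for Mdm4 and -0.01 ± 0.09 (SE) for Btg2. The 95% interval of the CD55KO level was 87.7 to 111% of WT for Mdm4 and 87.6 to 113% for Btg2. Mdm4 lies 15.1 kb from Pik3c2b, a class II phosphoinositide 3-kinase gene that is not among the 10 and fell, with a log2 fold change of -1.09 ± 0.10 (SE) and an adjusted p of 1.31e-05 by edgeR's quasi-likelihood test.

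Ptprc (ENSMUSG00000026395, positions 138062861 to 138175708) encodes CD45, the receptor tyrosine phosphatase found on nucleated blood cells. It had 952, 893 and 932 CPM in CD55KO replicates 1 to 3, against 869.5, 888 and 881 CPM in WT replicates 1 to 3. The lowest CD55KO library lay just above the highest WT library. The mean was 926 ± 29.8 CPM in CD55KO, against 879.5 ± 9.32 CPM in WT (n = 3 each, SD), and the log2 fold change of 0.07 ± 0.08 (SE) did not pass (adjusted p = 0.868 in edgeR's test). The 95% interval of the CD55KO level was 93.5 to 119% of WT. Gene-level counts do not separate the splice forms of CD45. Over the 7 IDs that did not pass, the intervals leave room for changes of the size given for each, and do not show equal levels.

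Per length, the 10 genes covered a wide range of levels in WT cells, in CPM per kb of annotated exon. Btg2 was first with 135 ± 9.24 CPM per kb, followed by Rassf5 with 55.5 ± 1.68 and Ptprc with 48.0 ± 0.51 CPM per kb (SD, n = 3). These stood above 96.9, 92.7 and 91.7% of the tested genes with an annotated length. The Zc3h11a IDs had 17.4 ± 0.74 (ENSMUSG00000116275) and 11.5 ± 1.24 CPM per kb (ENSMUSG00000102976), though their overlapping exons make both uncertain. Csrp1 had 10.9 ± 2.1, Mdm4 5.52 ± 0.47, Rnpep 4.99 ± 0.50 and Mapkapk2 3.72 ± 0.54 CPM per kb. Srgap2 with 1.45 ± 0.16 and Ikbke with 1.44 ± 0.16 CPM per kb were the lowest, under the median of 3.37 CPM per kb over 13761 genes. The WT libraries of neighbours in this order overlapped for Zc3h11a (ENSMUSG00000102976) and Csrp1, for Mdm4 and Rnpep, and for Srgap2 and Ikbke, and were apart for the other pairs. Exon length is that of all annotated transcripts joined, so a gene with long rarely used exons is set too low.

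**Figure D4:**
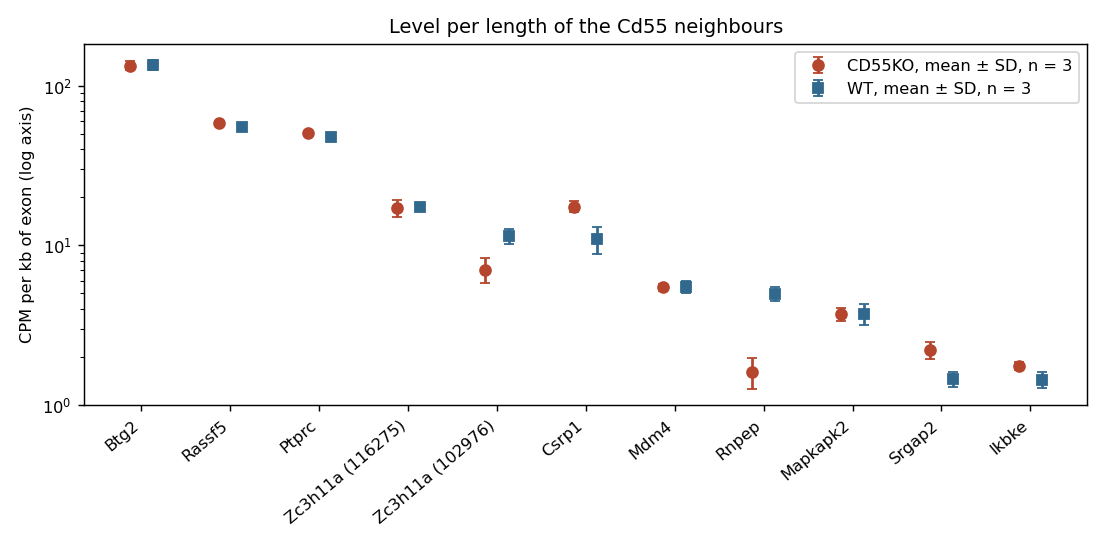
Level per length (CPM per kb of annotated exon, log axis) of each gene ID in CD55KO (red circles) and WT (blue squares), as mean ± SD over 3 libraries, ordered by the WT level from Btg2 at 135 to Ikbke at 1.44 CPM per kb. Rnpep was at 1.62 ± 0.36 CPM per kb in CD55KO and at 4.99 ± 0.50 in WT.

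Around the 10 genes, 66 other protein-coding genes within 10 Mb of Cd55 were tested, of 143 in the table, with 16 on the side of lower and 50 on the side of higher coordinates. Of these 1 rose and 2 fell, which is 4.55%, beside 0.429% of all tested protein-coding genes. They were Cxcr4, the receptor of CXCL12, at 1.85 Mb (log2 fold change 1.70 ± 0.25 SE), Fcmr, the Fc receptor for IgM, at 0.403 Mb (-0.50 ± 0.10 SE) and Pik3c2b at 2.58 Mb. Pik3c2b passed in all 6 fits without 1 library. Cxcr4 did not pass without CD55KO replicate 3 (adjusted p = 0.0604 in edgeR's test), WT replicate 1 (0.0716) or WT replicate 3 (0.13). Fcmr passed only without CD55KO replicate 1 (0.0491) or WT replicate 1 (0.00735), with adjusted p up to 0.217 in the other 4. Fcmr did not pass by limma-voom (adjusted p = 0.0562) but passed by limma-voom with robust variance estimates (0.0213). Cxcr4 passed by limma-voom (0.0331) but not by limma-voom with robust variance estimates (0.11). By each of these tests 3 of the 66 passed, with Ctse among them. All 3 genes lie within 2.58 Mb, and none of the 25 others tested beyond 4 Mb passed. These 25 leave out the members, of which Rnpep at 4.8 Mb and Csrp1 at 5.26 Mb passed, so no trend with distance is read from them. CD55KO and WT libraries did not overlap for 12 of the 66 (18.2%, beside the 14.1% of all tested genes given above). The median log2 fold change of the 66 was 0.0038. Without CD55KO replicate 3 or without WT replicate 3, 1 of the 66 passed instead of 3, Pik3c2b each time. That genes near Cd55 passed was known when the 10 were chosen, and the share is a description. Ctse at 1.18 Mb had the highest log2 fold change of the 66, 3.62 ± 0.45 (SE), and did not pass (adjusted p = 0.133 in edgeR's test).

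**Figure D5:**
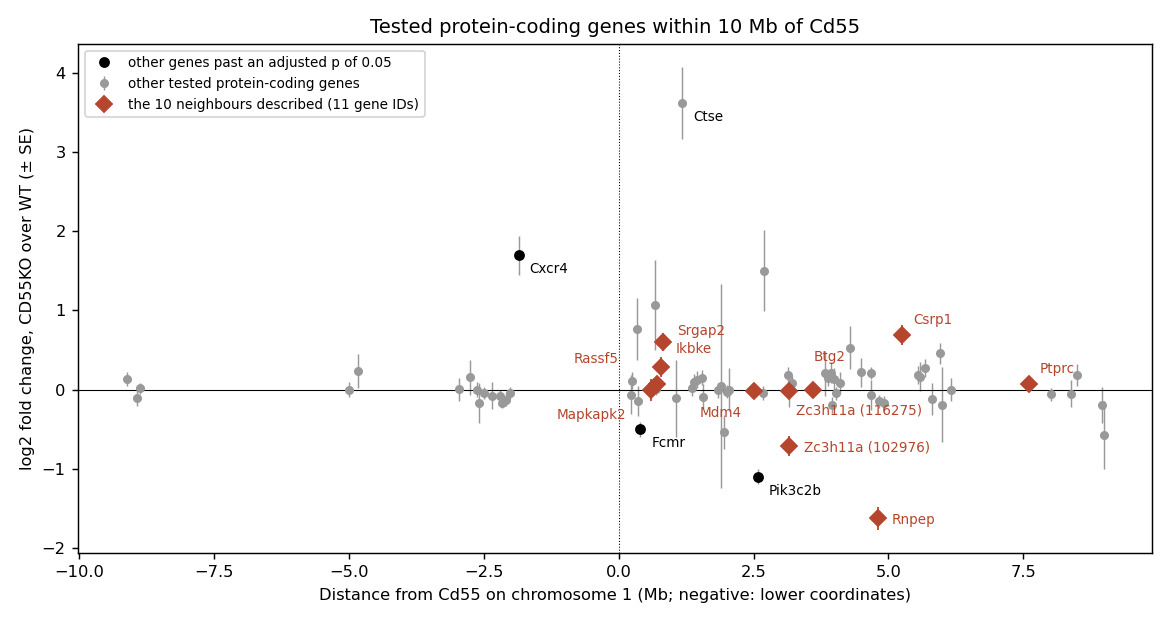
Log2 fold change (CD55KO over WT, ± SE) of the tested protein-coding genes within 10 Mb against the distance from Cd55 (Mb, negative for lower coordinates), with the 11 gene IDs described in red, other genes in grey and other genes past the threshold in black. Rnpep (-1.62) and Pik3c2b (-1.09) lay lowest, genes at about 0 stood beside them, and Ctse at 1.18 Mb had the highest value without passing.

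By other tests the members kept most of their calls. These tests used the same counts on which the members were partly chosen, so they give no independent support. The DESeq2 Wald test called the same 4 IDs (0.993% of all tested genes), and limma-voom called 3 (0.362% of all tested genes) and not Srgap2 (adjusted p = 0.074). With robust variance estimates limma-voom called 4 IDs, beside 55 of all 13794 tested genes, with Srgap2 at an adjusted p of 0.0326.

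Partners of each gene in its known pathway or family were examined in 10 lists, of which 130 genes in all were tested. Of these, 1 rose and none fell, and 14 had an unadjusted p under 0.05 (10.8%), beside 8.6% of all tested genes. List medians of the log2 fold change ran from -0.07 to 0.08, beside 0.0015 over all genes. The gene that rose was Pdlim1, a PDZ and LIM domain protein of actin fibres in the list of 12 tested LIM-domain and actin-bundling genes around Csrp1. Pdlim1 had 38.6, 43.7 and 36.8 CPM in CD55KO replicates 1 to 3, against 28.8, 28.6 and 23.4 CPM in WT replicates 1 to 3 (log2 fold change 0.56 ± 0.10 SE, adjusted p = 0.0213 in edgeR's quasi-likelihood test). It did not pass without CD55KO replicate 2 (adjusted p = 0.138), WT replicate 2 (0.0515) or WT replicate 3 (0.124) in edgeR's test, nor by limma-voom (adjusted p = 0.0514). Pdlim1 passed by limma-voom with robust variance estimates (adjusted p = 0.0213).

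None of the 11 tested zinc aminopeptidases related to Rnpep passed. Aopep had the smallest p, with 19.8 ± 2.66 CPM in CD55KO, against 16.3 ± 1.59 CPM in WT (n = 3 each, SD, adjusted p = 0.55 in edgeR's test), and Npepps came next with 19.2 ± 1.39 CPM in CD55KO, against 22.9 ± 3.67 CPM in WT (0.597). Of 14 tested TREX and mRNA export genes, around Zc3h11a, none passed. Sarnp had 68.8 ± 2.28 CPM in CD55KO, against 80.1 ± 6.92 CPM in WT, and the helicase gene Ddx39b had 310.2 ± 12.8 CPM in CD55KO, against 361 ± 3.64 CPM in WT (n = 3 each, SD, adjusted p = 0.397 and 0.399 in edgeR's test). Of 12 tested F-BAR and Rac or Cdc42 regulators, around Srgap2, none passed. Fnbp1 had a log2 fold change of 0.20 ± 0.08 (SE) and Was, which activates actin branching in blood cells, one of -0.17 ± 0.08 (SE).

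None of the 13 tested genes of the p38 and MK2 pathway passed. Dusp1, a phosphatase that switches p38 off, had 4.71 ± 1.53 CPM in CD55KO, against 3.18 ± 0.52 CPM in WT, and Map3k5 had 16.2 ± 1.51 CPM in CD55KO, against 13.6 ± 1.53 CPM in WT (n = 3 each, SD). None of the 13 tested IKK and TBK1 genes passed, where Tnfaip3, the NF-kB inhibitor A20, had a log2 fold change of -0.32 ± 0.18 (SE) and Mavs one of -0.26 ± 0.14 (SE). Of 15 tested RASSF, MST kinase and Rap1 genes none passed. Rassf6 had 1.14, 0.445 and 1.3 CPM in CD55KO replicates 1 to 3, against 2.96, 1.4 and 3.77 CPM in WT replicates 1 to 3, with no overlap at a low level (log2 fold change -1.48 ± 0.42 SE, adjusted p = 0.24 in edgeR's test), and Rap1b had a log2 fold change of 0.21 ± 0.09 (SE).

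None of the 12 tested p53 regulators and targets passed. The p53 target Ccng1 had 60.6 ± 7.15 CPM in CD55KO, against 74.6 ± 4.51 CPM in WT (n = 3 each, SD, adjusted p = 0.247 in edgeR's test), and Sesn1 had 234.6 ± 48.6 CPM in CD55KO, against 185.3 ± 27.3 CPM in WT (0.649). Of 14 tested BTG, TOB and CCR4-NOT genes none passed, with Tob1 at 11.7 ± 1.33 CPM in CD55KO, against 9.29 ± 1.42 CPM in WT (n = 3 each, SD) and Btg3 at 1.51 ± 0.11 CPM in CD55KO, against 0.921 ± 0.126 CPM in WT. Of 14 tested Src-family kinases and CD45 partners none passed. The Src-family kinase gene Fgr had 51.4 ± 4.01 CPM in CD55KO, against 44.9 ± 4.61 CPM in WT (n = 3 each, SD), a log2 fold change of 0.20 ± 0.09 (SE).

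For the 4 IDs that passed, the most similar genes elsewhere in the genome were sought by Pearson's correlation of log2 CPM over the 6 libraries, among 9137 tested genes with a mean of at least 5 CPM that do not lie within 10 Mb of Cd55. The libraries share their genotype, so a gene that differs between the genotypes scores high whatever its role. The highest of 9137 correlations over only 6 libraries are also high by selection, and the values are a description. Rnf5 (r = 0.994) and Rpn1 (r = 0.991) were most like Rnpep. Rpn1, a subunit of the oligosaccharyltransferase, had 113 ± 7.44 CPM in CD55KO, against 153 ± 4.77 CPM in WT (n = 3 each, SD) and passed (adjusted p = 0.0103 in edgeR's quasi-likelihood test). Stat3 (r = 0.992) and Tmem164 (r = 0.991) were most like Zc3h11a (ENSMUSG00000102976), Wsb1 (r = 0.999) and AW554918 (r = 0.995) most like Srgap2, and Bnip3l (r = 0.993) and Zfp51 (r = 0.992) most like Csrp1. These 6 and Rnf5 did not pass, and their fold changes were smaller in size than those of the members they followed.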

How the data were processed

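Gene expression was measured by RNA sequencing in 6 libraries of sorted MZ B cells, 3 per genotype, with genotype and replicate number from the sample titles. Per the labels' protocols, cDNA came from the SMARTer Ultra Low RNA kit, without strand information. The authors deposited an unscaled table of estimated counts for each gene, in which 30.9 to 31.9% of each library's nonzero values had decimals (tolerance 0.005). DRAGEN, edgeR and limma are named in the submitters' processing notes, without roles. Genome build and counting settings: not given in the sources used here. Of 55774 rows, 287 repeats with identical values (168 IDs) were removed, and counts were rounded to whole numbers before testing.

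The default filterByExpr rule (count 10, total 15) retained 13794 genes. They were tested with edgeR 4.0.16 in R 4.3.3 (TMM scaling, robust quasi-likelihood F-test, genotype alone, Benjamini-Hochberg adjustment over all tested genes, threshold 0.05), a procedure tested on simulated data. SEs are the fitted fold change over the square root of F. Log2 fold changes are CD55KO over WT. Positions, overlaps and exon lengths are from GENCODE M21 (GRCm38), where 99.4% of IDs were found, and distances run between the nearest gene edges. Libraries of the same genotype were not duplicates (chi-square 14.2 to 36.1 per degree of freedom between their counts).

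Named genes are the 10 members, Cd55, genes of each partner list past the threshold (up to 4, otherwise the 2 with the smallest p), protein-coding neighbours past it, the 2 most similar genes per member past it, flanking genes and window edges. The flanking and edge genes, Ctse and Gm26642 were added after values were seen, and 1 gene that the rule names is not reported here. The members, lists and tests were chosen with earlier results of these data known. Alternatives comprised a block for the replicate number, scaling by DESeq2 size factors or by library totals, the tests of DESeq2 1.42.0 and limma-voom (limma 3.58.1), other count filters, no immunoglobulin genes, windows of 5 and 20 Mb, and the omission of single libraries. Summing the Zc3h11a IDs and robust limma-voom were added after seeing the data.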

Additional observations from a re-analysis of the deposited data

How the results depend on the processing

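Rnpep passed under every setting tried, with log2 fold changes from -1.72 to -1.45. Of the 11 gene IDs, between 1 and 3 passed when 1 library was left out, instead of 4, and no library was without effect: Rnpep alone passed when CD55KO replicate 1, or WT replicate 2 or 3, was left out. Between 37 and 53 of all genes passed without 1 library, with 12 to 20 higher and 24 to 35 lower in CD55KO. The other neighbours past the threshold ranged from 1 to 3 and the partner genes from 0 to 1. The DESeq2 Wald test called 137 genes (61 higher, 76 lower), and no count filter gave 232 genes (104 higher, 128 lower) and 4 partner genes instead of 1. Limma-voom called 0 partner genes and not Srgap2 (log2 fold change 0.59). With robust variance estimates it called 1 partner gene and also Srgap2 (adjusted p = 0.0326). The cause was not tested.

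Same-numbered libraries had correlations of 0.075, -0.124 and 0.172 between their deviations from the genotype mean. With 3 libraries per genotype these values cannot decide whether the replicate numbers pair the libraries. With the replicate number as a block, 64 genes passed instead of 55 and Zc3h11a (ENSMUSG00000102976) did not (adjusted p = 0.108), and not every library correlated best with its own number. Genes near no change turned sign: Mapkapk2 to 0.0050 with the block and, without 1 library each, over -0.0822 to 0.13, Mdm4 over -0.0603 to 0.053, Btg2 over -0.0588 to 0.0405 and the second Zc3h11a ID over -0.0721 to 0.08. The smallest count of a member in a library was 208.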

Other observations

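Ctse, the gene of the aspartic protease cathepsin E, was looked at after its values were seen in the plot of fold change against distance from Cd55. It lies at 1.18 Mb from Cd55 (positions 131638306 to 131675505 of chromosome 1, plus strand, GRCm38), beyond Srgap2. The estimated counts were 8696, 7517 and 8369 in the CD55KO libraries, against 848, 573 and 451 in the WT libraries. That is 319, 304 and 293 CPM in CD55KO, against 41.2, 18.3 and 16 CPM in WT, with a mean of 305 ± 12.9 CPM in CD55KO, against 25.2 ± 13.9 CPM in WT (n = 3 each, SD). All CD55KO libraries lay far above all WT libraries, and WT replicate 1 was the highest of the WT libraries.

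The log2 fold change of Ctse was 3.62 ± 0.45 (SE), a 12.3-fold higher level in CD55KO. It ranked first by size among the tested protein-coding genes within 10 Mb other than Cd55, and 2nd of 9205 tested genes with a mean of at least 5 CPM. Ctse did not pass in edgeR's quasi-likelihood test (unadjusted p = 0.00107, adjusted p = 0.133). It passed by the DESeq2 Wald test (adjusted p = 7.24e-12), by limma-voom (3.19e-06) and by limma-voom with robust variance estimates (0.0466). Without WT replicate 1 it passed in edgeR's test with a log2 fold change of 4.15 ± 0.11 (SE, adjusted p = 2.2e-12), while the adjusted p without each of the other libraries was 0.248 to 0.407. With Ctse, 4 of the 66 other protein-coding neighbours passed by the DESeq2 Wald test.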
